A study of Mus musculus with 37 samples.

Results

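Long-term blood stem cells were set against the wider pool of early blood progenitors from the same mouse strain, and their mature microRNAs (miRNAs) were compared. The stem cell group (LT-HSC) held 4 runs of marrow cells sorted as Endoglin-positive, low in rhodamine dye, Sca-1-positive and lineage-negative. The progenitor group (KSL) held 3 runs of marrow cells sorted as Kit-positive, Sca-1-positive and lineage-negative. Both groups came from wildtype C57/Bl6 mice with no treatment named, and no age was given. These 7 runs, chosen by their sort gate and strain labels, are 7 of the 37 samples of the series. A further 2 KSL runs came from wildtype mice of mixed 129Sv/J and C57Bl6 strain, and their values are set beside the main ones. The labels describe LT-HSC as quiescent and self-renewing, and KSL as enriched for proliferating short-term stem cells and multipotent progenitors. The labels name no Kit criterion for LT-HSC, and the KSL gate does not remove long-term stem cells. The groups may thus share cells and are not shown to be separate cell types. Samples held 20 to 1000 sorted cells, with the number for each run not given, and nothing says that runs came from separate animals, so every p-value measures the spread between these runs. Each run gave a threshold cycle (Ct) in 459 TaqMan assays, where a lower Ct means more RNA, 1 cycle is 1 log2 unit at full PCR efficiency, and 40 marks no product. An assay was counted as detected below Ct 35.

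miRNAs are short RNAs that guide Argonaute proteins to messenger RNAs and lower their output. Bases 2 to 8, the seed, do most of the target pairing, so miRNAs with a shared seed have overlapping targets. In blood formation, miR-223 is the best known granulocyte miRNA, miR-150 marks mature lymphocytes, and miR-126, miR-125, miR-99/100, miR-130a, miR-155 and the miR-196 pair are known from stem and early progenitor cells. The miR-196 and miR-10 genes lie inside the Hox clusters, whose homeobox genes are active in immature blood cells.

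The mature sequences below are those of the miRNAs on which the results turn, from RefSeq (GRCm38.p6), where all 31 miRNAs looked up had an entry. The deposited files name each assay and do not give its primers, so a sequence stands for the miRNA of that name. Capitals mark the seed. The Hox cluster pairs are shown first because the miR-196 pair held the largest rises from LT-HSC to KSL.
miR-196a: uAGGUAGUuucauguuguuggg
miR-196b: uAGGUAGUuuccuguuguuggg
miR-10a: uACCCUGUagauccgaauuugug
miR-10b: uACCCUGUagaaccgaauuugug
Counted from the 5′ end, the miR-196 pair differs by A12C and the miR-10 pair by U12A. miR-196a is encoded at chr11:96265187-96265208 in the Hoxb region and at chr15:102973365-102973386, and miR-196b at chr6:52230129-52230150. miR-10a lies within the span of Hoxb3 (chr11:96317186-96317208), 51999 bases from the first miR-196a locus, and miR-10b within those of Hoxd3 and Hoxd4 (chr2:74726074-74726096). The miR-99/100 family, high in early blood cells, has a seed of its own.
miR-99a: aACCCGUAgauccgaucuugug
miR-99b: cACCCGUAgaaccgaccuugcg
miR-100: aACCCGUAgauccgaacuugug
miR-99a and miR-100 differ by U16A. They lie at chr16:77598940-77598961 and chr9:41531437-41531458, each near a miR-125b gene, and miR-99b (chr17:17830194-17830215) starts 623 bases from miR-125a. The miR-17 seed is shown because its carriers, encoded at separate loci, rose by very different amounts.
miR-93: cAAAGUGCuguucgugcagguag
miR-106a: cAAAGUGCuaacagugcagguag
miR-106b: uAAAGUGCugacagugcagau
miR-20a: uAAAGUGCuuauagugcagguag
miR-17: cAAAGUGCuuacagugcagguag
miR-93 and miR-106b start 213 bases apart within the span of Mcm7, a replication helicase gene, on chromosome 5 (chr5:138165574-138165596 and chr5:138165787-138165807). miR-106a is on the X chromosome (chrX:52742541-52742563) and differs from miR-17 by A10U. miR-17 and miR-20a start 499 bases apart on chromosome 14 (chr14:115043684-115043706 and chr14:115044183-115044205). The miR-29 and the miR-15/16 sets are shown because members with 1 seed went in opposite directions.
miR-29a: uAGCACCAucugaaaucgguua
miR-29b: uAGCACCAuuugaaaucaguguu
miR-29c: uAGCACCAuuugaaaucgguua
miR-15b: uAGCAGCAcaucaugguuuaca
miR-16: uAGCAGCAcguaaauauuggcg
miR-29a and miR-29c differ by C10U. miR-29b comes from 2 loci, one 352 bases from miR-29a (chr6:31063025-31063047) and one 509 bases from miR-29c (chr1:195037091-195037113). miR-15b and a copy of miR-16 start 143 bases apart within the span of Smc4 (chr3:69009775-69009796 and chr3:69009918-69009939). The last sequences belong to the miRNAs that lead the LT-HSC side, to the opposite strands of miR-30e, and to miR-126.
miR-223: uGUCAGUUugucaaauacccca
miR-212: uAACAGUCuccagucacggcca
miR-132: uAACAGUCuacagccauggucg
miR-30e: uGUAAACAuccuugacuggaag
miR-30e-3p: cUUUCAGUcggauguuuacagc
miR-126: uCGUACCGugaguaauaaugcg
miR-223 is on the X chromosome (chrX:96242884-96242905). miR-212 and miR-132 have 1 seed and start 280 bases apart (chr11:75173443-75173464 and chr11:75173723-75173744). Both strands of miR-30e lie within the span of Nfyc (chr4:120772660-120772681 and chr4:120772618-120772639), and miR-126 within that of Egfl7, an endothelial gene (chr2:26591402-26591423).

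Fewer assays gave a signal in the stem cells. LT-HSC runs 1 to 4 detected 73, 85, 86 and 96 assays, and the KSL runs 129, 123 and 133. The means were 85.0 ± 9.42 (SD, n = 4) and 128 ± 5.03 (SD, n = 3). The groups did not overlap, and the exact two-sided permutation test gave p = 0.0571, the smallest that 35 splits allow, so this design cannot reach 0.05. The 49 assays detected in all 7 runs had a mean Ct of 27.9 ± 0.433 (SD, n = 4) in LT-HSC and 25.8 ± 0.0754 (SD, n = 3) in KSL, a difference of -2.01 cycles (exact permutation p = 0.0571). Fewer cells in the tube and less RNA per cell cannot be told apart here. The mixed-strain KSL runs lay at 28 and 27.6 over the same 49 assays, inside the LT-HSC range of 27.4 to 28.4, and detected 98 and 102 assays. They match the LT-HSC runs in this mean, which does not make each miRNA comparable. Their strain differs and their cell numbers are not given, so an effect of input was not tested.

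**Figure D1:**
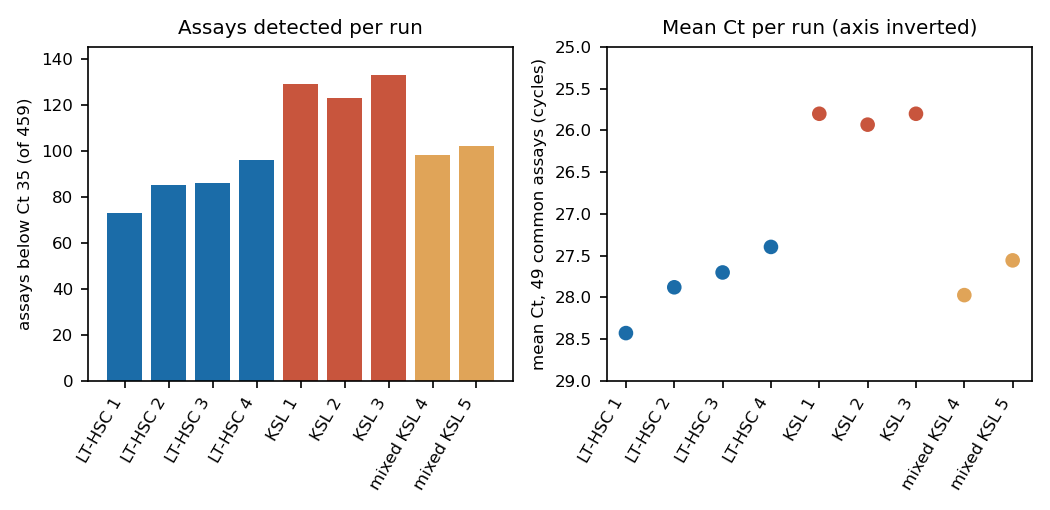
Assays below Ct 35 of 459 in each run (left) and mean Ct over the 49 assays detected in all 7 LT-HSC and C57/Bl6 KSL runs (right, inverted axis), with 1 bar or point per run for LT-HSC (blue), C57/Bl6 KSL (red) and mixed-strain KSL (orange). The mixed-strain runs sit among the LT-HSC runs in mean Ct and above them in the number detected.

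To compare levels despite this offset, each run was centred on its mean Ct over those 49 assays, so a difference below is relative to their average, and all 49 together average 0. Levels under the lowest one measurable in all 7 runs, -6.57 on the log2 scale, were set to that common floor. This floor lies at Ct 35 in LT-HSC run 1 and at about Ct 32.4 in KSL runs 1 and 3. A difference reads "at least" or "or lower" where a whole group missed the assay or sat at the floor, and its standard error is then understated because such a group shows no spread. Where only part of a group sat at the floor, the difference carries no such mark, although its true size can be larger. Among these are mmu-miR-106a, miR-125a, miR-23bN, miR-10a and miR-375. A stricter detection limit of Ct 32 puts more faint assays at the floor, and there the calls of miR-126*, miR-125b, miR-99a, miR-99b, miR-27b and mmu-miR-140* described below ended (adjusted p = 0.228 to 1). Of 459 assays, 291 were detected in none of the 7 runs. In all, 121 were tested with limma, 49 detected in every run, 64 in every KSL run but not every LT-HSC run, and 8 the other way round.

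The adjusted p was under 0.05 for 78 of the 121 assays (64.5%). Of these, 60 were higher in KSL (49.6% of those tested) and 18 lower (14.9%). The median difference was 1.14. An assay that entered the test through KSL alone had little room to do anything but rise, so the 49 assays seen in every run are the fairer ground. Among them 20 were higher in KSL (40.8%) and 12 lower (24.5%), with a median of 0.51. The split of calls moved with the scaling. Quantile normalization gave 51 higher and 29 lower, with a median difference of 0.97. Unscaled Ct gave 86 higher and 11 lower, with a median of 3.27. Centring runs on the median of the 49 assays gave 37 higher and 23 lower, with a median of 0.37. Of the 78 calls, 42 kept their direction and their adjusted p under 0.05 under all 4 other scalings and with each run left out in turn, 33 of them higher and 9 lower.

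**Figure D2:**
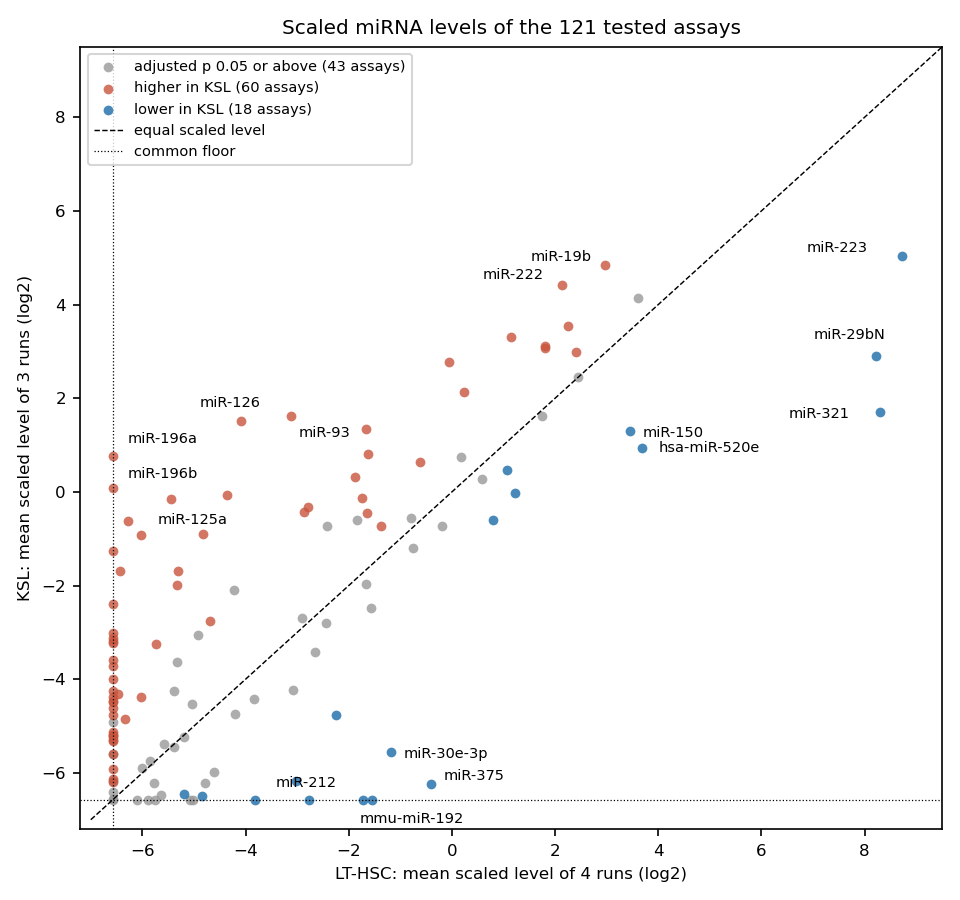
Mean scaled level of each of the 121 tested assays in 4 LT-HSC runs (x axis) and 3 C57/Bl6 KSL runs (y axis), both in log2 units, with assays higher in KSL in red, lower in blue and others in grey. The column of points at the left edge holds assays at the floor in LT-HSC, and miR-223, miR-29bN and miR-321 stand alone at the right.

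The stem cell profile was dominated by 3 assays. In LT-HSC the lowest mean Ct values were those of miR-223 (19.1 ± 0.263, SD, n = 4), miR-321 (19.6 ± 0.238) and miR-29bN (19.6 ± 0.0957). The next assay followed 4.55 cycles later. In KSL the corresponding gap was 0.267 cycles, and 20 assays had a mean Ct below 25, against 7 in LT-HSC. In mixed-strain KSL the mean Ct over the assays detected in all 7 runs lay inside the LT-HSC range. There 9 assays were below 25 and the gap was 0.95 cycles. KSL was led by miR-223, miR-19b, miR-222 and miR-92, at mean Ct 20.8, 21.0, 21.4 and 21.7. miR-19b and miR-92 are products of the growth-promoting miR-17 cluster, and miR-222 is known to repress the receptor Kit. Ct values of different assays also carry the efficiency of their primers, so this order is one of signal and not of molecule number.

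All 3 leading LT-HSC assays fell in KSL. The miR-223 assay gave Ct 19.5, 18.9, 19.1 and 19 in LT-HSC and 20.9, 21.0 and 20.5 in KSL. Every LT-HSC run was therefore below every KSL run before any scaling, although the 49 shared assays moved the other way. The mixed-strain runs were at 23.2 and 22.1. After scaling, miR-223 was lower in KSL by -3.68 ± 0.20 (SE; limma adjusted p = 1.26e-05). With quantile normalization, which ties the top-ranked assay of every run, the difference was -0.05 (adjusted p = 0.663).

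miR-321 is a registry entry later withdrawn as a fragment of a transfer RNA, so its assay reports a small RNA that is not a canonical miRNA. It gave Ct 19.9, 19.4, 19.5 and 19.4 in LT-HSC, 24.1, 23.9 and 24.4 in KSL, and 26.8 and 26.2 in mixed-strain KSL. This was the largest fall, -6.59 ± 0.21 (adjusted p = 9.88e-07), and every KSL run lay at least 4 cycles above every LT-HSC run. miR-29bN (the files give the N without a meaning) read Ct 19.7, 19.6, 19.7 and 19.5 against 22.9, 23.1 and 22.8, with 23.3 in both mixed-strain runs, a difference of -5.32 ± 0.22 (adjusted p = 4.02e-06). The panel's other miR-29b assay was at 40 in all 4 LT-HSC runs and missed the limit in every KSL run, so the miR-29b signal rests on 1 of 2 assays.

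Beyond these, several assays that LT-HSC runs detected near Ct 30 were faint or missing in KSL. miR-375, an islet and gut miRNA, was at Ct 27.4, 28, 28.4 and 29.2 in LT-HSC but at 38, 40 and 31.4 in KSL (-5.85 ± 0.67, adjusted p = 0.000337). KSL run 3 alone detected it among the C57/Bl6 runs, and the mixed-strain runs read 31.8 and 37.8. miR-212, which shares a seed and a locus with miR-132, was at 30, 30.1, 28.8 and 29.4 against 37.2, 37 and 33 (-4.85 ± 0.28 or lower, adjusted p = 1.26e-05). miR-132 itself was seen in LT-HSC runs 3 and 4 alone, at 34.8 and 34.3, and stood at 40 in all KSL runs of either strain. hsa-miR-188 (-2.75 ± 0.25 or lower, adjusted p = 0.000107) and mmu-miR-463 (-3.80 ± 0.49 or lower, adjusted p = 0.000548) were called lower too, with mmu-miR-463 at Ct 31.5, 31.8, 29.8 and 29.4 in LT-HSC against 33, 33.9 and 33.2 in KSL. Both calls ended at a detection limit of Ct 32, at -0.12 (adjusted p = 0.466) and -1.03 (adjusted p = 0.125).

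Without scaling, every LT-HSC run was at a lower Ct than every KSL run in 10 of the 121 assays (8.26%), and the reverse held in 88 (72.7%). The 10 were miR-321, miR-29bN, miR-223, miR-375, mmu-miR-192, miR-212, miR-30e-3p, hsa-miR-188, mmu-miR-463 and hsa-miR-519e*. The first 9 were called lower in KSL, and hsa-miR-519e* differed by -1.5 ± 0.56 or lower (adjusted p = 0.0513). Of the other 9 falls, hsa-miR-520h kept its call under all 4 other scalings and 8 did not. miR-150, the lymphocyte miRNA, had Ct 24.5, 24.5, 24.2 and 24.4 in LT-HSC and 24.5, 24.7 and 24.4 in KSL. Its Ct was thus level between the groups while the mean Ct of the shared assays differed by -2.01 cycles, which gives -2.14 ± 0.23 after scaling (adjusted p = 0.000226) and -0.13 with no scaling (adjusted p = 0.421). miR-186 likewise went from -2.51 ± 0.53 (adjusted p = 0.00592) to -0.50 with no scaling (adjusted p = 0.451). let-7i (-1.39 ± 0.26, adjusted p = 0.00323) and miR-16 (-0.60 ± 0.22, adjusted p = 0.0481) turned to 0.62 and 1.41 with no scaling. The miR-16 call also ended when LT-HSC run 1 or 2 or any KSL run was left out (adjusted p = 0.0639 to 0.181).

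**Figure D3:**
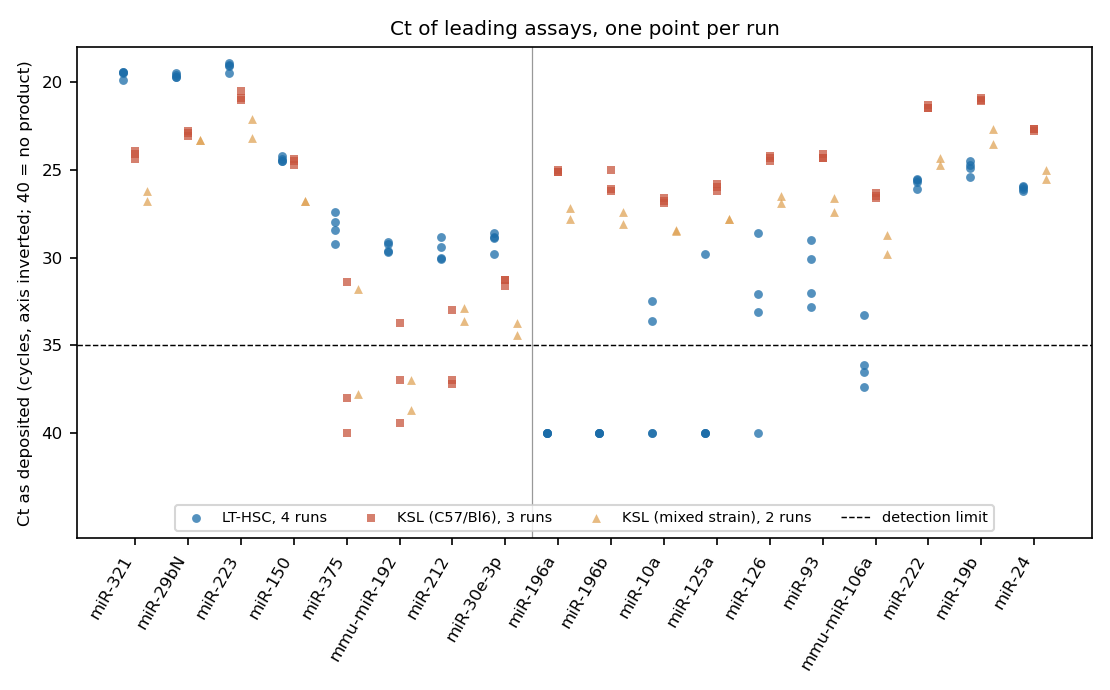
Deposited Ct (inverted axis, in cycles) of 18 leading assays in 4 LT-HSC runs (circles), 3 C57/Bl6 KSL runs (squares) and 2 mixed-strain KSL runs (triangles), with the detection limit dashed. Left of the divider are assays that fell from LT-HSC to KSL and right of it assays that rose. miR-196a and miR-196b are at 40 in all LT-HSC runs.

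The clearest rise was that of the miR-196 pair among the Hox cluster miRNAs. miR-196a gave no product in any LT-HSC run, at Ct 40 in all 4, and read 25.1, 25.1 and 25 in KSL. It was at 27.2 and 27.8 in the mixed-strain runs. The scaled difference was at least 7.35 ± 0.11 (adjusted p = 3.01e-08). miR-196b, the copy beside Hoxa genes, was also at 40 in all LT-HSC runs and at 26.2, 26.1 and 25 in KSL, with 27.4 and 28.1 in the mixed strain (at least 6.65 ± 0.29, adjusted p = 4.04e-06). Neither assay gave product in LT-HSC, while every KSL run of either strain detected both.

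miR-10a was missing from LT-HSC runs 1 and 2 and faint in runs 3 and 4, at Ct 33.6 and 32.5. In KSL it read 26.9, 26.8 and 26.6, and in the mixed strain 28.5 and 28.4 (5.11 ± 0.39, adjusted p = 4.09e-05). miR-10b was at 40 in all LT-HSC runs but only at 32, 31.9 and 32 in KSL, and was not detected in the mixed strain, at 38.2 and 38.4 (at least 0.45 ± 0.12, adjusted p = 0.0145), and its call ended without LT-HSC run 4 (adjusted p = 0.13) and when runs were centred on the median. The second miR-10b assay was at 40 in all 7 runs. All 4 tested Hox cluster assays rose, beside 49.6% of all tested assays, and their median was 5.88 against 1.14 over all of those. However, all 4 had entered the test through KSL, so the count is a description.

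The miRNAs known from immature blood cells were, with 1 exception among those tested, higher in the progenitor gate than in the stem cell gate. Of 25 assays on this list, 10 were detected in any LT-HSC run and 22 in any KSL run. In all, 19 were tested and 18 were higher, beside 49.6% of all tested assays, and 13 of the 19 had entered through KSL alone. Of the 6 seen in all 7 runs, 5 were higher, against 40.8% of all such assays. The summed scaled level of the whole list lay between 3.38 and 4.01 (log2) in the LT-HSC runs and between 5.59 and 5.71 in the KSL runs. The exception, miR-146, differed by -0.14 ± 0.18 (adjusted p = 0.529) and by 1.87 with no scaling, and was called lower with quantile normalization (-0.47, adjusted p = 0.00943) and centred on the median (-0.88, adjusted p = 0.0165). Under each of these 2 scalings the list held 15 higher and 1 lower. Its relative hsa-miR-146b was higher by 1.92 ± 0.20 (adjusted p = 0.000187).

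miR-126, encoded in Egfl7 and known to restrain stem cell cycling, was uneven among the stem cell runs. Ct was 33.1, 28.6, 32.1 and 40 in LT-HSC and 24.2, 24.5 and 24.3 in KSL, with 26.5 and 26.9 in the mixed strain. KSL was higher by 5.60 ± 1.29 (adjusted p = 0.00863), and with no floor the adjusted p was 0.0518. The opposite strand, miR-126*, was at 40 in all LT-HSC runs and at 30.1, 30.6 and 30 in KSL (at least 2.18 ± 0.15, adjusted p = 2.13e-05), so both strands of the hairpin were called higher. The mixed-strain runs read miR-126* at 34.5 and 38.3, so 1 of 2 missed it. The endothelial marker list consists of these same 2 assays.

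miR-125a showed the same patchy pattern, at Ct 40, 40, 29.8 and 40 in LT-HSC and 26.0, 25.8 and 26.2 in KSL (5.30 ± 1.19, adjusted p = 0.00761). It can enlarge the stem cell pool when overexpressed in mice. miR-125b was missed by all LT-HSC runs and read 30.7, 31.3 and 30.9 in KSL (at least 1.45 ± 0.14, adjusted p = 0.000153). The neighbours of these genes, miR-100 (at least 3.38 ± 0.23), miR-99a (at least 2.98 ± 0.19) and miR-99b (1.64 ± 0.58, adjusted p = 0.045), were also higher. All 4 miR-99/100 and both miR-125 assays had entered the test through KSL alone, so their shared direction is a description. The second miR-99a assay, mmu-miR-99a, rose by at least 0.65 ± 0.11. In the mixed strain miR-99a (0.915, adjusted p = 0.0696) and miR-99b (0.971, adjusted p = 0.285) were not called, while miR-100 was (1.315, adjusted p = 0.0478). miR-99b was at 40 in LT-HSC runs 1 to 3 and at 31.8 in run 4. Leaving out any run but LT-HSC run 4 ended its call (adjusted p = 0.0902 to 0.117), as did quantile normalization (adjusted p = 0.128).

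miR-155, induced in activated lymphocytes and myeloid cells, was read by a pair of assays. mmu-miR-155 gave Ct 30, 29.9, 29.8 and 29.2 in LT-HSC and 25.6, 25.4 and 25.6 in KSL (2.18 ± 0.18, adjusted p = 6.51e-05). The other assay detected it in no LT-HSC run and at 28.9, 28.9 and 28.8 in KSL (at least 3.55 ± 0.11). The bicistronic miR-221 and miR-222 rose by similar amounts, mmu-miR-221 by 2.83 ± 0.24 (adjusted p = 6.71e-05) and miR-222 by 2.28 ± 0.31 (adjusted p = 0.000706). The panel's other miR-221 assay was at Ct 40 in all 7 runs, so the miR-221 rise rests on 1 of 2 assays. For miR-222, Ct was 25.5, 26.1, 25.7 and 25.6 against 21.3, 21.5 and 21.5, a gap of about 4 cycles between groups whose own runs lay within 1 cycle of each other. miR-181b, from a family that promotes lymphoid fate, was higher in both its assays, by 2.16 ± 0.21 for hsa-miR-181b and by at least 5.31 ± 0.14 for miR-181bN, while hsa-miR-181d differed by 0.21 ± 0.45 (adjusted p = 0.704).

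The miR-17 cluster and its paralogues, which promote proliferation, had 14 of 18 assays tested, 9 of them higher, beside 49.6% of all tested assays, and none lower, and 7 of the 14 had entered through KSL alone. Of the 7 seen in every run, 5 were higher, beside 40.8% of such assays, with a median of 1.70 against 0.51 over all 49 such assays. The size of the rise differed widely between carriers of the same seed. mmu-miR-106a read Ct 36.1, 33.3, 37.4 and 36.5 in LT-HSC and 26.5, 26.6 and 26.3 in KSL (5.66 ± 0.32, adjusted p = 1.26e-05). miR-93 read 32, 30.1, 32.8 and 29 against 24.1, 24.3 and 24.3 (4.73 ± 0.82, adjusted p = 0.00236). Both were thus far apart between groups in every run.

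miR-106b, which shares the Mcm7 transcript with miR-93, rose by only 1.19 ± 0.25 (adjusted p = 0.00592), from Ct 30.4, 29.9, 28.8 and 28.9 to 26.2, 26.4 and 26.3, and by 0.03 with quantile normalization. miR-20, from the miR-17 locus itself, rose by 1.29 ± 0.16 (adjusted p = 0.000463) and miR-19b, a carrier of another seed, by 1.87 ± 0.11 (adjusted p = 1.26e-05). Mature miR-19b is encoded both in that locus and on the X chromosome, so its assay belongs to neither alone. miR-17-5p differed by 0.18 ± 0.68 (adjusted p = 0.839), with Ct 31.0, 31.3 and 31.4 in KSL, and was called higher by 0.83 without LT-HSC run 2 (adjusted p = 0.0274). miR-92 was at 0.54 ± 0.25 (adjusted p = 0.0915), whereas miR-92N rose by 3.02 ± 0.94 (adjusted p = 0.0287), a call that ended without LT-HSC run 3 or any KSL run (adjusted p = 0.0623 to 0.0935) and with quantile normalization (adjusted p = 0.0625). Differences between carriers were not tested against each other.

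**Figure D4:**
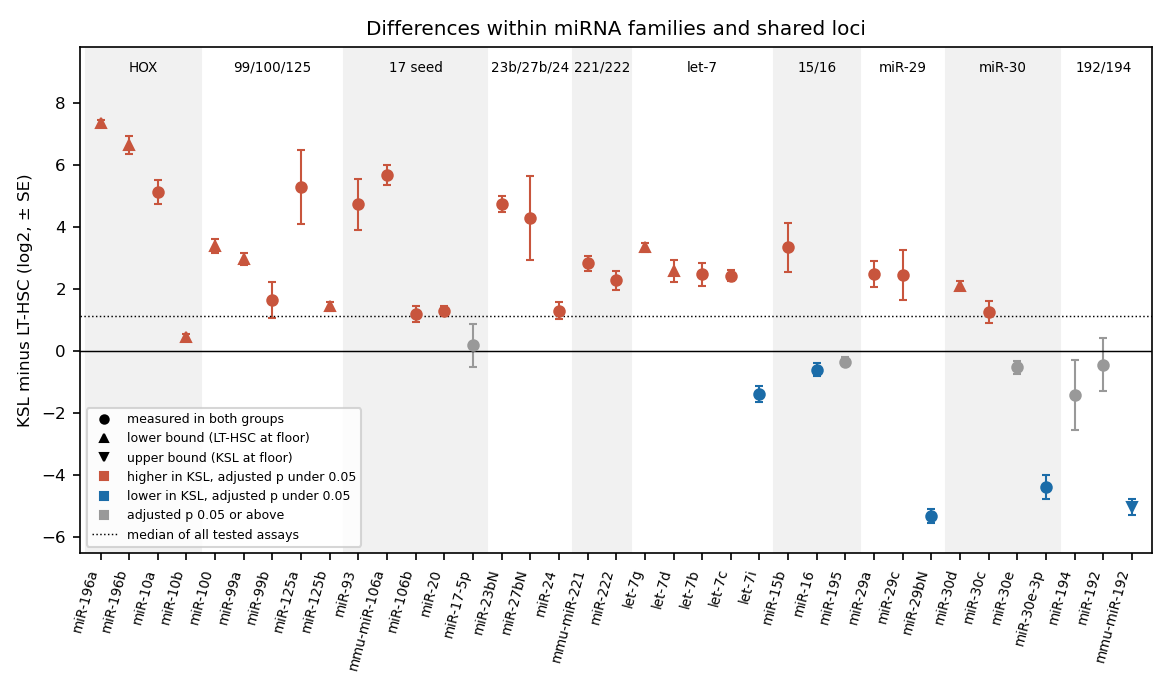
KSL minus LT-HSC in log2 units (± SE, 3 against 4 runs) for members of miRNA families and shared loci, with the dotted line at the median of all tested assays. Triangles are bounds. The miR-29, miR-15/16, let-7 and miR-30 sets each hold members on both sides of 0.

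Some families split. Within miR-29, the miR-29bN assay fell by 5.32 on the log2 scale while its cluster partners rose. miR-29a read Ct 33.1, 33.8, 33.5 and 40 in LT-HSC and 29.2, 29.1 and 29 in KSL (2.48 ± 0.43, adjusted p = 0.00236). miR-29c read 31.3, 29.7, 29.5 and 32.4 against 26.2, 26.4 and 26.2 (2.45 ± 0.80, adjusted p = 0.033). The 3 miRNAs share a seed, and each miR-29b locus lies within 1 kb of a partner that went the other way. The second miR-29a assay, hsa-miR-29a, had a mean Ct of 40 in both groups, and the second miR-29b assay was detected in no run. The miR-29a rise and the miR-29b fall thus each rest on 1 of 2 assays. With quantile normalization the miR-29a rise was 1.73 (adjusted p = 0.171), and the miR-29c call ended without LT-HSC run 1 or any KSL run (adjusted p = 0.0533 to 0.0987) and with quantile normalization (adjusted p = 0.235).

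In the let-7 family, which promotes differentiation and was known first from worm development, 5 of 8 tested assays rose and 1 fell, near the shares of all tested assays (49.6% and 14.9%), and 5 of the 8 had entered the test through KSL alone. let-7c went from Ct 30.2, 29.6, 28.9 and 29.2 to 24.9, 25.1 and 25.1 (2.43 ± 0.19, adjusted p = 4.30e-05), let-7b rose by 2.48 ± 0.38 and let-7g by at least 3.35 ± 0.14. let-7i was the fall described above, at Ct 27.2, 26.8, 27.4 and 26.8 against 26.5, 26.6 and 26.2, and was the brightest assay of the family in LT-HSC. The mixed-strain runs read it at 26.1 and 25.9, where the scaled difference was 1.04 in the other direction (adjusted p = 0.0387), and with all 5 KSL runs it was -0.45 (adjusted p = 0.548). The neighbours miR-15b and miR-16 also differed in direction. miR-15b, missed in LT-HSC runs 1 and 2 and at 31.5 and 31.8 in runs 3 and 4, read 27.5, 27.8 and 28.2 in KSL (3.35 ± 0.78, adjusted p = 0.00919), and its adjusted p was 0.0603 with quantile normalization.

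The miR-30 family had 3 of 7 assays higher and 1 lower, near the shares of all tested assays (49.6% and 14.9%), so the counts show nothing particular to it. The 2 strands of miR-30e differed in size. miR-30e read Ct 28.4, 27.9, 28.1 and 27.8 in LT-HSC and 26.3, 26.5 and 26.9 in KSL (-0.52 ± 0.21, adjusted p = 0.0675), and 1.48 with no scaling. It was called lower with quantile normalization (-1.62, adjusted p = 0.000224), centred on the median (-1.26, adjusted p = 0.00444) and without LT-HSC run 4 (-0.75, adjusted p = 0.0324). miR-30e-3p read 28.8, 29.8, 28.6 and 28.9 against 31.6, 31.3 and 31.3, with 33.7 and 34.4 in the mixed strain (-4.38 ± 0.38, adjusted p = 8.18e-05). In LT-HSC the strands thus lay about 1 cycle apart, and in KSL about 5. For miR-140 the picture was the opposite, with mmu-miR-140* higher by 2.16 ± 0.70 (adjusted p = 0.033) and the guide assays at -0.01 ± 0.29 (miR-140) and 0.65 ± 0.16 (mmu-miR-140, adjusted p = 0.0124). The mmu-miR-140* call ended without LT-HSC run 2, 3 or 4 or KSL run 2 (adjusted p = 0.0515 to 0.071), and the mmu-miR-140 call without LT-HSC run 4 (adjusted p = 0.0721). The direction of mmu-miR-140 turned to -0.53 with quantile normalization and to -0.08 centred on the median.

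Of the list of miR-23, miR-27 and miR-24 assays, 5 were tested and 4 rose, beside 49.6% of all tested assays, and 4 of the 5 had entered through KSL alone. miR-24 is encoded in both the miR-23b and the miR-23a cluster, so its assay belongs to neither alone. miR-27a was at -0.08 (adjusted p = 0.962). miR-23bN was seen in 1 LT-HSC run at Ct 33.9 and read 27.1, 27.5 and 28 in KSL (4.74 ± 0.27, adjusted p = 1.26e-05). miR-24 rose by 1.31 ± 0.28 (adjusted p = 0.00592), at 26.1, 25.9, 26.0 and 26.2 against 22.8, 22.7 and 22.7, although centred on the median the difference was 0.58 (adjusted p = 0.145). miR-27bN rose by 4.30 ± 1.35 (adjusted p = 0.0289), from 30.7, 29.9, 40 and 34.1 to 25.8, 25.9 and 26.0. This call ended without LT-HSC run 3 or 4 or any KSL run (adjusted p = 0.0513 to 0.0914) and with quantile normalization (adjusted p = 0.113), while the assay miR-27b, at 40 in all LT-HSC runs, rose by at least 2.85 ± 0.16.

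Assays that carry the same miRNA name were set side by side, since the panel holds several miRNAs more than once. In 15 such pairs both assays were tested. In 6 pairs both were called, each time higher in KSL, in 6 a single assay was called, and in 3 neither. Each of the pairs called together held at least 1 assay that entered the test through KSL alone. Such an assay had little room to fall, so agreement in direction is a weak check. No pair was called in opposite directions in this fit. The widest disagreements were miR-31 and miR-192. hsa-miR-31 was missed by every LT-HSC run and read 28.4, 28.2 and 28.1 in KSL (at least 4.18 ± 0.13, adjusted p = 8.78e-07), while the assay miR-31 read 30.3, 31.2, 30.4 and 30.1 against 29.2, 29.2 and 29.4 (-0.77 ± 0.34, adjusted p = 0.0812), and 1.23 with no scaling. The miR-31 assay was called lower, opposite to hsa-miR-31, with quantile normalization (-1.76, adjusted p = 0.00723), centred on the median (-1.51, adjusted p = 0.0165) and without LT-HSC run 2 (-0.97, adjusted p = 0.0292). In the mixed strain hsa-miR-31 was not detected, at 35.7 and 38.7.

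miR-192 is an epithelial miRNA of gut and kidney. mmu-miR-192 was at Ct 29.7, 29.2, 29.1 and 29.6 in LT-HSC and at 39.4, 37 and 33.7 in KSL (-5.02 ± 0.25 or lower, adjusted p = 8.46e-06), but the assay miR-192 was seen in LT-HSC run 4 alone and at 31.6, 32.3 and 32.3 in KSL (-0.44 ± 0.85, adjusted p = 0.678). The paired assays thus gave opposite pictures of where the miRNA was detectable. Among the pairs called together, mmu-miR-93 rose by 3.94 ± 1.08 (adjusted p = 0.0169) beside the larger rise of miR-93, though that call ended without any 1 KSL run (adjusted p = 0.0572 to 0.0617), with quantile normalization (adjusted p = 0.098) and with all 5 KSL runs (adjusted p = 0.117). The paired assays disagreed in the mixed strain, where mmu-miR-93 read 33.6 and 31.5, a scaled difference of 0.12, and miR-93 27.4 and 26.6, a difference of 3.96. miR-106a rose in both assays, by 5.66 ± 0.32 with LT-HSC run 2 alone above the floor, and by at least 3.45 ± 0.29. In the mixed strain the second assay read 33.8 and 34.9, a scaled difference of 0.41 (adjusted p = 0.237), against 4.87 for mmu-miR-106a, and its call ended at a detection limit of Ct 32 (0.74, adjusted p = 0.0671).

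**Figure D5:**
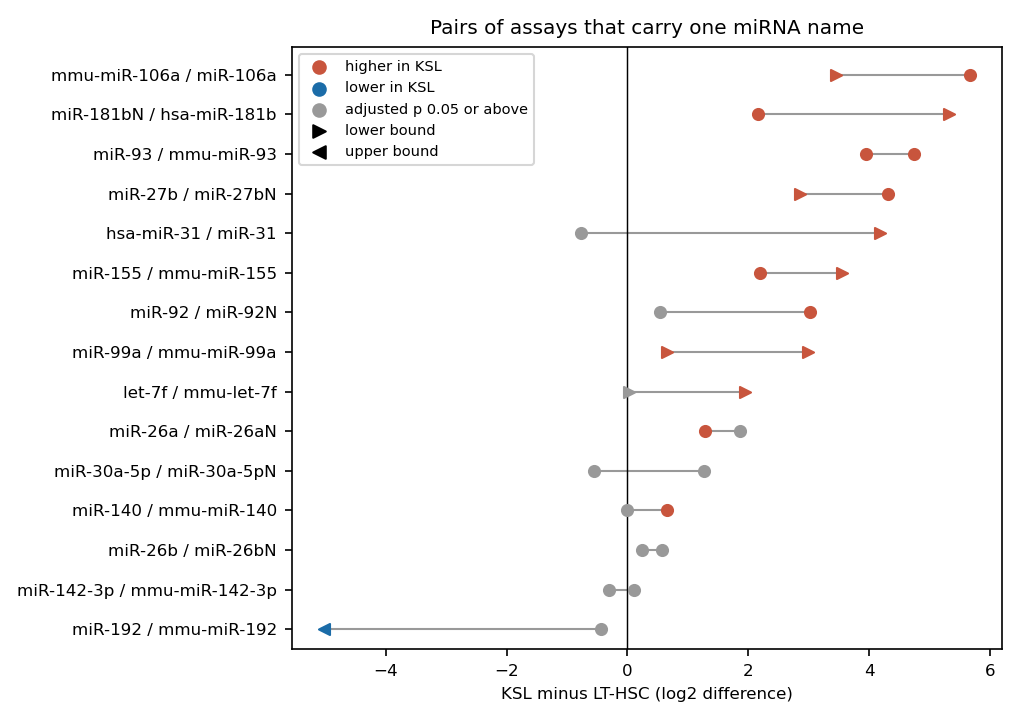
KSL minus LT-HSC in log2 units for the 15 pairs of tested assays that carry 1 miRNA name, with the paired assays joined by a line and coloured by their limma call. Arrowheads are bounds. The miR-192 and miR-31 pairs are the furthest apart.

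The panel also holds assays for a miRNA cluster of chromosome 19 that is known from primates alone, and a signal from these in mouse cells has no miRNA of that name behind it. Of 45 such assays, 37 were missed by all 7 runs, beside 291 of 459 on the whole panel. hsa-miR-520e was the fourth strongest signal in LT-HSC, at Ct 24.5, 24.5, 24.1 and 23.6, against 24.7, 25.5 and 24.5 in KSL. It fell by 2.73 on the log2 scale (SE 0.25, adjusted p = 0.000109) and by 0.73 with no scaling (adjusted p = 0.0891). hsa-miR-520h (-3.16 ± 0.43, adjusted p = 0.00072) and hsa-miR-522 (-1.25 ± 0.21, adjusted p = 0.00224) fell too, and hsa-miR-522 was at 0.76 with no scaling. Thus 3 of 6 tested were lower, beside 14.9% of all tested assays. hsa-miR-525, missed by all LT-HSC runs and at Ct 29.8, 30.1 and 33.2 in KSL and 31.4 and 31.3 in the mixed strain, differed by 1.66 ± 0.63 (adjusted p = 0.0537), and with all 5 KSL runs it was higher by 2.19 (adjusted p = 0.00737). The mixed-strain runs read hsa-miR-520e at 24.1 and 24.4, within the LT-HSC range, and hsa-miR-522 at 25.3 and 25.5, below the Ct of every LT-HSC run, and with all 5 KSL runs the hsa-miR-522 call ended (-0.29, adjusted p = 0.684).

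Markers of other cell types were examined in whole lists, and their part in the results was not tested. The myeloid list of 5 assays had a summed scaled level of 8.41 to 8.99 (log2) in LT-HSC and 4.99 to 5.36 in KSL, nearly all of it miR-223. The other tested myeloid markers were not called. miR-142-3p differed by -0.30 ± 0.45 (adjusted p = 0.597), though by -0.63 without LT-HSC run 1 (adjusted p = 0.0118), and miR-142-5p by -0.44 ± 0.53 (adjusted p = 0.498). With quantile normalization both were called lower (-1.14, adjusted p = 0.0396, and -1.53, adjusted p = 0.0412). Of the lymphoid list miR-150 fell, both miR-155 assays rose, and miR-181a was seen in KSL run 3 alone. The erythroid miR-451 was detected in LT-HSC runs 2, 3 and 4 by hsa-miR-451, at Ct 30.1, 32.3 and 32, and in run 3 by mmu-miR-451, at 28.6. It stood at 40 in both assays in every KSL run of either strain and in LT-HSC run 1.

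The epithelial list had 18 assays, of which LT-HSC runs detected 7 and KSL runs 8. Its summed level was -0.38 to 1.33 in LT-HSC and -1.70 to -0.99 in KSL. miR-375 and mmu-miR-192 fell, and miR-203, a skin miRNA, rose by 3.62 ± 0.79 (adjusted p = 0.00671), at Ct 32.4, 32, 40 and 40 in LT-HSC against 27.7, 27.8 and 27.1 in KSL. With quantile normalization its adjusted p was 0.063, and with no floor 0.0609. The second miR-203 assay, mmu-miR-203, had a mean Ct of 40 in both groups. Of the mesenchymal and muscle lists, 5 of 7 and 3 of 4 assays were missed in all 7 runs, beside 291 of 459 on the whole panel. The liver marker miR-122 was missed by all 7 runs, and 7 of 9 neural assays were missed throughout. The embryonic stem cell list had 10 of 16 assays missed, near the share of the whole panel, and 1 tested, mmu-miR-294. This assay rose by 1.94 ± 0.47 (adjusted p = 0.0109), from Ct 33.1, 33.7, 31.7 and 31.7 to 29, 28.7 and 28.1. With quantile normalization its rise was 1.04 (adjusted p = 0.109).

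The labels were checked against markers of blood cells. Every run of both groups detected miR-223, miR-142-3p and miR-150, which blood cells carry, below Ct 30. The panel's second miR-142-3p assay, mmu-miR-142-3p, was detected in LT-HSC run 2 alone of that group, at Ct 31.6. It lay at 35.2 to 39 in the other LT-HSC runs. Of the 3 marker miRNAs, miR-196a and miR-126 were higher in KSL, both having entered the test through KSL alone, and miR-223 was higher in LT-HSC except with quantile normalization. The files hold no surface marker or messenger RNA that would check the gates directly.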

How the data were processed

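miRNAs were measured by multiplex reverse transcription and TaqMan PCR on sorted cells, per the labels' protocols. The deposited values are Ct values, to 1 decimal. How the threshold was set, with what software and with what normalization is not given in the sources used here. The number of runs limits the precision, and PCR cycles carry no count of molecules. Groups were taken from the labels (4 LT-HSC, 3 KSL of C57/Bl6, 2 mixed-strain KSL). The members and lists were chosen with earlier results of these data known.

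Scaled log2 levels, computed from the deposited Ct, were fitted in limma 3.58.1 (R 4.3.3; moderated two-sided test, Benjamini-Hochberg over 121 assays, threshold 0.05). Testing needed a Ct below 35 in all runs of LT-HSC or of KSL. One assay at the floor in all 7 runs, let-7a, was kept among those tested with a p of 1. Lists are described by counts and medians, with no test. The fit was tested on simulated data with equal noise in every run. The real groups differed in spread, with a median SD of 0.435 in LT-HSC and 0.116 in KSL over the 49 shared assays. Such unequal spread was not simulated.

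The named assays follow a fixed rule, taking the 15 largest rises and falls without overlap, up to 4 per list, the 8 strongest per group, the 3 markers, further assays or strands of these, and members against their list's direction. miR-106b, miR-17-5p, miR-132, the miR-451 and let-7f assays, miR-191, hsa-miR-425, miR-27a, hsa-miR-525, miR-181a and miR-122 were named after their values were seen. Replicates of a group differed by an SD of 0.337 to 0.929 cycles between runs, so none was taken as a repeat deposit. Alternatives were other detection limits, scalings, floors and filters, trend and block fits, all 5 KSL runs, and leaving out each run.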

Additional observations from a re-analysis of the deposited data

Results flagged for a closer look

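In 16 results the highest or lowest LT-HSC run stood apart from the other 3 by Dixon's 95% criterion. Chance alone meets it in about 1 of 20 groups. Where 3 runs tie at the floor, any rise of the other run meets it, so this rate does not apply there. Over all 121 tested assays, named here or not, 6 had LT-HSC run 1 apart, 4 run 2, 3 run 3 and 6 run 4, so no single run held most of them. Values are scaled log2 levels, with the floor at -6.57. In 8 of them a single LT-HSC run rose above a floor that held the other 3, namely mmu-miR-106a (run 2, -5.42), miR-125a (run 3, -2.10), miR-23bN (run 2, -6.02), miR-99b (run 4, -4.40), miR-152N (run 1, -1.87), miR-192 (run 4, -3.40), mmu-miR-140* (run 4, -6.20) and mmu-miR-142-3p (run 2, -3.72). miR-152N differed by 1.14 ± 1.25 between groups (adjusted p = 0.46), and by 2.98 without LT-HSC run 1 (adjusted p = 0.000144).

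Above the other 3 runs stood hsa-miR-520h in run 1 (-2.17), let-7c in run 3 (-1.20), let-7b in run 1 (-1.77), miR-26a in run 1 (2.13) and hsa-miR-522 in run 2 (1.58). Below them stood mmu-miR-192 in run 4 (-2.20), miR-142-3p in run 1 (-0.67) and miR-30a-5p in run 1 (-5.37). Some of these flags hold for scaled levels only. In deposited Ct, miR-26a in run 1 (26.3) had a weaker signal than the other runs (25.7 to 26.2). mmu-miR-192 in run 4 (29.6) lay within theirs (29.1 to 29.7). hsa-miR-520h in run 1 and hsa-miR-522 in run 2 tied the lowest Ct of the others (30.6 and 26.3). Without LT-HSC run 1, miR-142-3p was lower in KSL by -0.63 (adjusted p = 0.0118).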

How the results depend on the processing

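The count of 78 calls was within 1.5 times under every alternative but one, from 53 (detection limit Ct 32) to 97 (no scaling), and 69 to 87 with a run left out. Testing only the 49 assays seen in all 7 runs, an alternative chosen after seeing the data, gave 32 calls, 21 higher and 11 lower, from fewer assays. The 60 higher calls were 39 at Ct 32 and 37 centred on the median, and 54 to 62 with a run left out. The 18 lower calls were 29 with quantile normalization and 11 with no scaling, and 15 to 25 with a run left out. The median difference of 1.14 was 0.19 at Ct 32, 3.27 with no scaling, 0.37 centred on the median, 2.18 with no floor, 0.23 with all assays tested, and 0.72 to 1.22 with a run left out. With no scaling, let-7i (0.62), miR-16 (1.41), miR-195 (1.67), miR-146 (1.87), miR-140 (2.00), hsa-miR-522 (0.76), miR-30e (1.48) and miR-31 (1.23) changed sign. With quantile normalization miR-26b (-0.91), mmu-miR-140 (-0.53) and miR-191 (-0.026) did, and centred on the median mmu-miR-140 (-0.083) and miR-191 (-0.16). The cause was not tested. With all 5 KSL runs the difference in assays detected was 32 (exact permutation p = 0.0159), and 39.3 to 47.0 with a run left out, and that in mean Ct was -1.24 (exact permutation p = 0.111), and -2.32 to -1.73 with a run left out. The replicate block gave 67 calls, 51 higher and 16 lower, and a median of 0.98. Residuals of the 3 same-numbered pairs of runs correlated at -0.124 to 0.0528, and LT-HSC run 1 alone correlated best with its own number, and none of the KSL runs did, so the numbers were not treated as pairing samples.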

Other observations

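The pair miR-191 and miR-425, which share a transcript, was higher in KSL. miR-191 read Ct 25.8, 25.5, 25.3 and 25.2 in LT-HSC and 22.9, 22.9 and 22.8 in KSL (0.58 ± 0.14, limma adjusted p = 0.0112). Its sign turned with quantile normalization and when centred on the median, and with all 5 KSL runs it was at 0.13 (adjusted p = 0.726). The miR-191 call also ended without LT-HSC run 4 (adjusted p = 0.0904). hsa-miR-425 was at 40 in all LT-HSC runs and at 30.6, 30.8 and 30.4 in KSL (at least 1.81 ± 0.12, adjusted p = 2.01e-05). The calls of hsa-miR-425 and mmu-let-7f ended at a detection limit of Ct 32, where both groups lay at the floor. In the let-7 family, mmu-let-7f rose by at least 1.95 ± 0.30 (adjusted p = 0.00125). The assay let-7f differed by at least 0.02 ± 0.10 (adjusted p = 0.862), with Ct 32.3, 32.9 and 33 in KSL against 40 in every LT-HSC run. These KSL values lie near or under the common floor. With no floor let-7f was called higher (5.26, adjusted p = 1.47e-05), as at a detection limit of Ct 38 (2.69), with quantile normalization (0.97) and with no scaling (2.27). In the other 12 of 16 alternatives its call did not change.

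The imprinted Dlk1-Dio3 cluster, a large set of miRNAs used in embryonic and neural cells, was nearly silent in both gates. Of its 39 assays, 34 were missed by all 7 runs, beside 291 of 459 on the whole panel. The 2 that were tested, mmu-miR-431 and miR-381, differed by -0.84 ± 0.67 (adjusted p = 0.313) and 0.51 ± 0.75 (adjusted p = 0.588).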
